A study of Mus musculus with 6 samples.

Results

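This account concerns 8 genes of the Wnt pathway whose products act outside the cell: the secreted modulators Sfrp1, Sfrp2, Sfrp4, Frzb, Dkk2, Dkk3 and Wif1, and the ligand Wnt5a. They were taken by name from the 18193 named genes on the array, with every probe set annotated to each gene alone, which gave 17 probe sets. The genes were chosen by their signals in the 4 kinds of sample, with earlier results of these arrays known, so their levels are described without a test. The mouse samples were FL-Y labelled as activated by anti-LTbeta receptor treatment (1 array), FL-Y with no activation named (1 array), follicular dendritic cells (FDC) cultured in vitro (2 arrays) and bone marrow-derived dendritic cells (BMDC, 2 arrays). FL-Y is a cell line with FDC-like features, transformed with SV40, and both FL-Y arrays come from this 1 line. Total RNA of each sample was labelled with biotin and hybridised to 1 array. Nothing in the labels says that the 2 arrays of FDC or of BMDC came from separate cultures or animals, and the sources used here give no strain, age, culture time or dose.

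Wnt proteins are secreted, lipid-modified ligands that bind Frizzled receptors, together with Lrp co-receptors in the beta-catenin branch and with Ror or Ryk receptors in other branches. Secreted frizzled-related proteins (the Sfrp genes and Frzb) carry a Frizzled-like domain and bind Wnts before they reach a receptor, and Wif1 also binds Wnts. Dickkopf proteins act on the Lrp co-receptors, except that the part of Dkk3 in Wnt signalling is less clear. Stromal fibroblasts are known sources of both Wnt5a and these modulators, and Wnt5a is best known for signalling through Ror2 without beta-catenin.

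The median signal of an array lay between 47.9 and 84.4, and the 20th percentile, used here as a mark of background, between 8.7 and 15.4. Among probe sets with a signal under 100, the 2 FDC arrays differed by a median of 0.73 on the log2 scale and by 1.91 at the 90th percentile, and the 2 BMDC arrays by 0.72 and 1.90 in the same terms. Log2 values were taken of the signal plus 14.2, which understates changes of dim probe sets. The cultures labelled FDC had stromal transcripts, but their signals for 2 defining FDC receptors were low: Cr2 was at 120 and 4.1 on the FDC arrays and at 59.1 and 71.1 on the BMDC arrays, and Fcer2a was at 104 and 42.4 on the FDC arrays and at 54.8 and 61.4 on the BMDC arrays. The FDC cultures also gave signals of some mast cell genes, such as Tpsab1 at 1651 and 1253, against 51.5 and 42.3 in BMDC. The mast cell gene Kit went the other way, at 44.3 and 108 in FDC and 155 and 121 in BMDC. The T cell gene Cd3d was at 898 and 489 in FDC and 62 and 11.2 in BMDC. Cd3e was at 148 and 131 in FDC and 69.6 and 6.9 in BMDC. The mean signal of labelling control probe sets (Lys, Phe, Thr, Dap and Trpn) over that of hybridisation controls (BioB, BioC, BioD and Cre) was 0.0396 in activated FL-Y, 0.0358 in FL-Y, 0.0801 and 0.219 on FDC arrays 1 and 2 and 0.0689 and 0.335 on BMDC arrays 1 and 2, and thus higher on the second array of FDC and of BMDC.

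The 8 genes did not share 1 pattern. By their representative probe sets, Sfrp1, Dkk3 and Wnt5a were higher in cultured FDC and in FL-Y than in BMDC, where these gave at most 105. For Wnt5a the log2 difference of FL-Y minus BMDC ran from -1.26 to 2.37 over its 4 probe sets. Dkk3 and Wnt5a were lower in FL-Y than on either FDC array, while Sfrp1 in FL-Y lay between the 2 FDC arrays. Sfrp2 and Dkk2 were highest in the FL-Y line. Frzb and Sfrp4 did not exceed 257 on any array, the representative probe set of each being highest on FDC array 1, and Wif1 did not rise above the 40th percentile on any array. Of the 8 genes, 5 had a representative probe set (the one with the highest mean log2 value) above the filter used for testing, and Sfrp2, Dkk2 and Wif1 were below it. Of the 17 probe sets, 14 were above it.

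**Figure D1:**
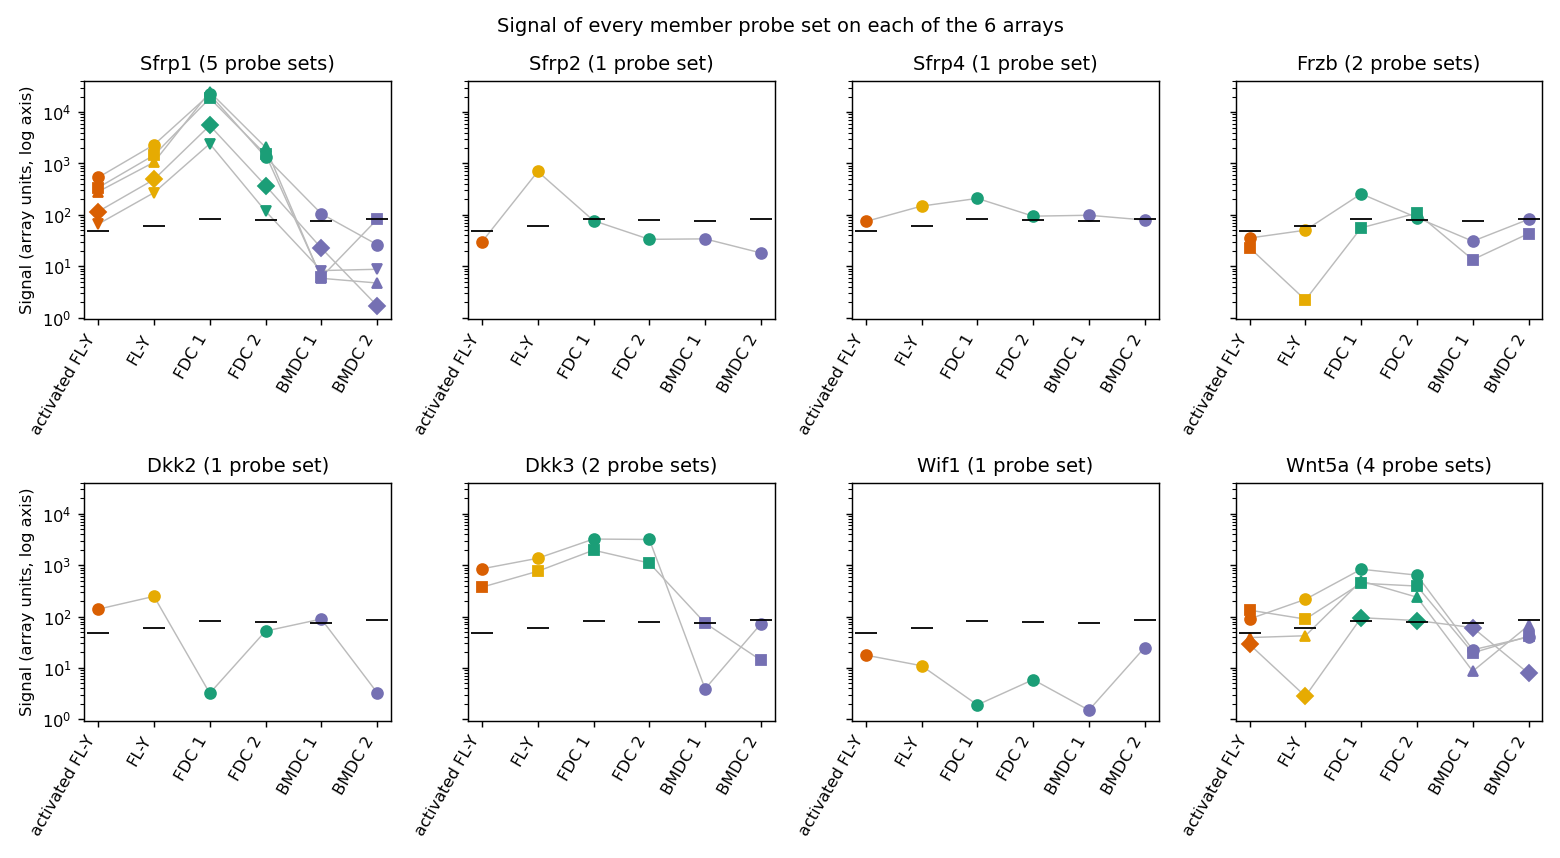
Signal of each of the 17 probe sets (vertical log axis, array units) on the 6 arrays (horizontal axis), with 1 panel per gene, 1 marker shape per probe set and a thin line that joins the values of a probe set. Black bars give the median of each array; all 5 Sfrp1 probe sets peak on FDC array 1, while the Sfrp2 probe set stands above the median on the FL-Y array only.

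Sfrp1 encodes a soluble Wnt-binding protein. Its representative probe set gave 534 in activated FL-Y, 2313 in FL-Y, 22200 and 1342 in FDC, and 105 and 26.3 in BMDC. Both FDC arrays and both FL-Y arrays were above both BMDC arrays, but the FL-Y value lay between the 2 FDC values. The FDC mean was 11771 ± 14749 and the BMDC mean 65.8 ± 55.8 (SD, n = 2 each), a log2 difference of 6.30 ± 1.37 (SE of the fit). The other 4 probe sets of Sfrp1 gave differences of 4.65 to 8.53, so all 5 had the same direction. The other 4 had signals of 66 to 339 in activated FL-Y, 270 to 1452 in FL-Y, 2424 to 24838 on FDC array 1, 118 to 2070 on FDC array 2, 5.8 to 22.5 on BMDC array 1 and 1.7 to 81.3 on BMDC array 2. In bulk samples such as these, fewer cells of a type and less RNA per cell cannot be told apart.

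The 2 FDC arrays differed widely in Sfrp1. FDC array 1 exceeded FDC array 2 in each of the 5 probe sets, by ratios of the signals between 12 and 20.6. On the log2 scale the representative differed by 4.03, which ranks 42 from the highest of 18193 genes. By their representatives, Dkk3 (0.03) and Wnt5a (0.37) differed little between the same arrays, although another probe set differed by 0.83 for Dkk3 and by 1.01 for Wnt5a. Frzb (1.41), Sfrp4 (1.04) and Sfrp2 (0.94) were higher on FDC array 1 and Dkk2 (-1.93) and Wif1 (-0.32) lower. Of the 8 genes only Sfrp1 was higher on FDC array 1 by at least 2 on the log2 scale, against 3.17% of all genes. Of 13 FDC and stromal marker genes, 7 were higher on array 1 by a log2 difference of at least 1 and 0 were lower by that much. Such differences were common among all genes: that of Sfrp4, 1.04, ranked 2504 from the highest of 18193. The median difference of the 13 was 1.06, against 0.04 for all genes. Among the higher ones were Cxcl13 (4.05), Col3a1 (1.57) and Cr2 (2.87), the last at 4.1 on array 2, under its 20th percentile of 14.8. Fcer2a (1.06) was another, at 42.4 on array 2, under its 40th percentile of 53.6. Pdpn (-0.84), Icam1 (-0.36) and Mfge8 (-0.33) were lower on array 1. The summed signal of the 13 was 190455 on FDC array 1 and 117394 on FDC array 2, of which Col3a1 gave 79141 and 26579. The summed signal of 4 mast cell genes was 4594 and 7103 on FDC arrays 1 and 2, of which Cma1 gave 1990 and 4919. Kit was also higher on array 2 (44.3 and 108), while Tpsab1 (1651 and 1253) and Mcpt4 (909 and 823) were higher on array 1. The sum of 3 T cell genes was 1537 and 900, and that of 8 BMDC markers 1732 and 1613. The part of these differences in the Sfrp1 values was not tested. Without FDC array 1 the difference between FDC and BMDC in Sfrp1 was 4.29, without FDC array 2 it was 8.32, and the difference between FL-Y and FDC was 0.78 and -3.25 in the same cases, so its sign rests on which FDC array is used.

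**Figure D2:**
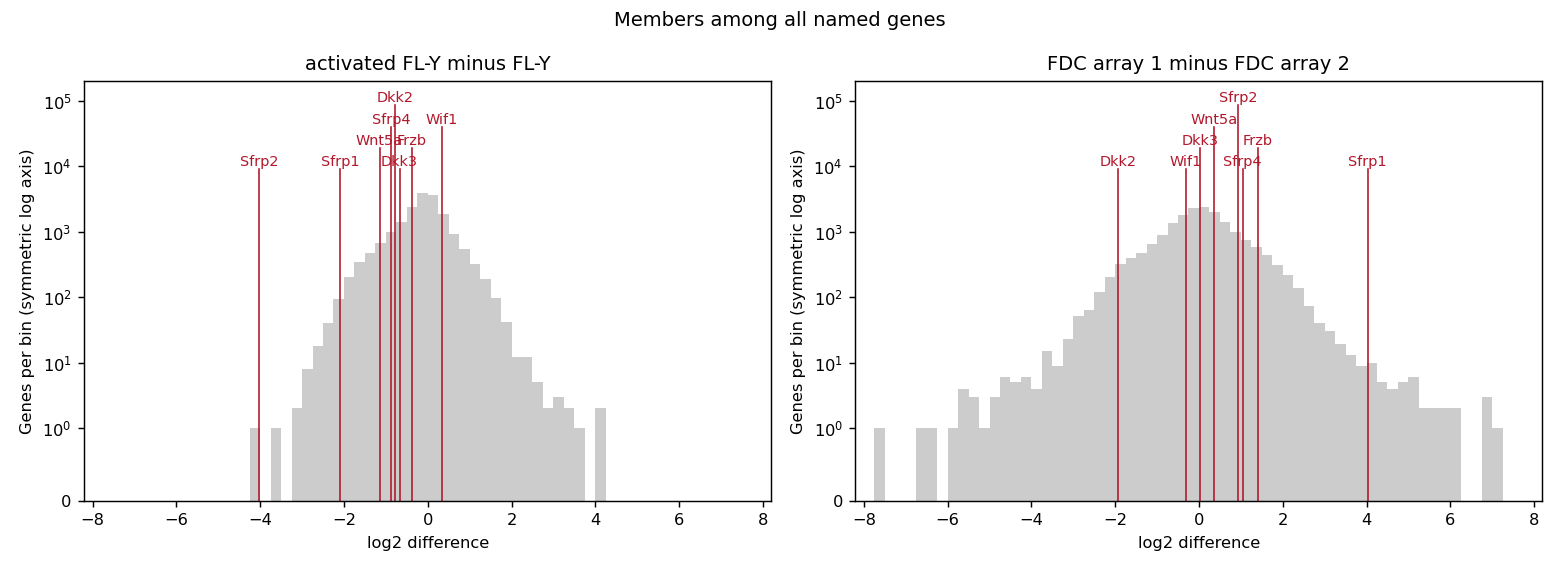
Distribution of the log2 difference over 18193 named genes (bars, number of genes on a symmetric log axis), for activated FL-Y minus FL-Y on the left and FDC array 1 minus FDC array 2 on the right, with red lines at the 8 genes. Sfrp2 lies at -4.02 at the low edge of the left panel, and Sfrp1 at 4.03 far into the upper tail of the right panel.

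Dkk3, a secreted member of the Dickkopf family, was high on both FDC arrays. Its representative gave 850 in activated FL-Y, 1364 in FL-Y, 3230 and 3171 in FDC, and 3.9 and 72 in BMDC. Each FDC value exceeded the FL-Y value, which exceeded the activated FL-Y value, and the BMDC values were lowest. The FDC mean was 3200 ± 41.6 and the BMDC mean 38 ± 48.2 (SD, n = 2 each), a log2 difference of 6.35 ± 0.78 (SE of the fit), and it was 4.89 for the other probe set, which gave 1961 and 1100 in FDC and 74.4 and 14.1 in BMDC. The 2 BMDC values are both in the range where replicate arrays differ most, so the size of the difference depends on the offset.

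Wnt5a was the only Wnt ligand among the 8. Its representative gave 89.8 in activated FL-Y, 216 in FL-Y, 834 and 640 in FDC, and 22.5 and 39.8 in BMDC. The FDC arrays were above both FL-Y arrays, and these above both BMDC arrays. The FDC mean was 737 ± 137 and the BMDC mean 31.1 ± 12.2 (SD, n = 2 each), a log2 difference of 4.07 ± 0.42 (SE of the fit). The other 3 probe sets gave smaller differences of 1.35 to 3.32 in the same direction. The second probe set gave 445 and 392 in FDC and 19.6 and 41.4 in BMDC, the third 492 and 238 in FDC and 8.6 and 66.9 in BMDC, and the dimmest 94.9 and 83.5 in FDC and 60.8 and 7.8 in BMDC. In all 4 probe sets both FDC arrays were above both BMDC arrays and FL-Y was below FDC, by 1.69 to 2.66 on the log2 scale. FL-Y and BMDC were not ordered alike by all of them: the log2 difference of FL-Y minus BMDC was 2.37, 1.25 and 0.39 for 3 probe sets and -1.26 for the dimmest.

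Frzb (also called Sfrp3) and Sfrp4 are both Wnt-binding proteins of the Sfrp family. The brighter Frzb probe set gave 35.3 in activated FL-Y, 50.2 in FL-Y, 257 and 88 in FDC, and 30.6 and 81.7 in BMDC. FDC array 2 and BMDC array 2 were nearly level, and the log2 difference of FDC minus BMDC was 2.60 for FDC array 1 and BMDC array 1 and 0.09 for FDC array 2 and BMDC array 2. The other Frzb probe set gave 22.8 in activated FL-Y, 2.2 in FL-Y, 55.8 and 108 in FDC, and 13.4 and 43.1 in BMDC, and there both FDC arrays exceeded both BMDC arrays with FDC array 2 the higher. Sfrp4 gave 74.2 in activated FL-Y, 148 in FL-Y, 209 and 94.1 in FDC, and 98.1 and 79.2 in BMDC. The FDC and BMDC values of Sfrp4 overlapped, with a log2 difference of 0.60 ± 0.49 (SE of the fit). Wif1 had signals of 17.7 in activated FL-Y, 11 in FL-Y, 1.9 and 5.9 in FDC, and 1.5 and 24.9 in BMDC, which passed an array's 20th percentile on 2 arrays and its 40th on 0.

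A log2 difference of at least 2 was found for 3 of the 8 genes (Sfrp1, Dkk3 and Wnt5a), all higher in FDC than in BMDC, where 6.72% of all genes were higher and 5.72% lower by that much. Both FDC arrays exceeded both BMDC arrays for 4 of 8 genes (those 3 and Frzb), against 25.7% of all genes. Because the genes were chosen with this contrast known, these counts describe the choice. The median difference was 1.04 for the 8 genes and -0.01 for all genes. The choice used signals in all 4 kinds of sample, so the counts and ranks in FL-Y and on activation also describe it.

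Sfrp2 and Dkk2 were the genes of the 8 with the largest differences of FL-Y minus the FDC mean. Sfrp2, a Wnt-binding protein of fibroblasts, gave 29.8 in activated FL-Y, 699 in FL-Y, 76.9 and 33.3 in FDC, and 34 and 18.1 in BMDC. The FL-Y value stood far above all others, and the FDC and BMDC values overlapped, FDC array 1 alone among those 4 being above its 40th percentile (55). The log2 difference of FL-Y minus FDC was 3.44, rank 48 from the highest of 18193 genes, and that of FL-Y minus BMDC was 4.18. Dkk2, a Dickkopf protein that binds Lrp co-receptors, gave 139 in activated FL-Y, 247 in FL-Y, 3.2 and 52.1 in FDC, and 89.4 and 3.3 in BMDC. Both FL-Y arrays exceeded all 4 other arrays for Dkk2, BMDC array 1 being the nearest, and without BMDC array 2 the difference of FL-Y minus BMDC was 1.33 in place of 2.62. Each of these genes was read by 1 probe set, so no second probe set can be compared.

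The 250 bases before the transcription start of Sfrp2 and Dkk2 are shown because these genes alone among the 8 were higher in FL-Y than in FDC by at least 2 on the log2 scale. Both sequences are from RefSeq, build GRCm38.p6, plus strand, with any TATAAA match in capitals; 4 of the 8 genes had an entry (Sfrp2, Frzb, Dkk2 and Wif1), and RefSeq also holds transcripts of Sfrp2 and Dkk2 that begin further upstream.
Sfrp2, chr3:83766071-83766320: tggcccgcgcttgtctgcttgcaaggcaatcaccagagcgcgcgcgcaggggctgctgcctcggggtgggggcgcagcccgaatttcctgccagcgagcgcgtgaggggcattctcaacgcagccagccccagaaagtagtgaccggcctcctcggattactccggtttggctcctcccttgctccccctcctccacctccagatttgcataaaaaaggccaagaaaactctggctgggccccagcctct
Dkk2, chr3:132085042-132085291: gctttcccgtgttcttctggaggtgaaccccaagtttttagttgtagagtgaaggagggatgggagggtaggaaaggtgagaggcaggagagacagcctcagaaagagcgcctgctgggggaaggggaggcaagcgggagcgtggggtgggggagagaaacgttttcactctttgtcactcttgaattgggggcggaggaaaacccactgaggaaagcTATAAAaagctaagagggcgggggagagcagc

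Over both strands, TATAAA was found in the Dkk2 window, 32 bases before the start, and not in that of Sfrp2, and 12.4% of 32851 promoter windows of that length hold it. The Sfrp2 window had a G and C content of 63.6% and that of Dkk2 55.6%. Neither window held CTTTGAT, a pattern of TCF and LEF sites found in 3.21% of windows, or a match to a degenerate NF-kB pattern, found in 4.11%. These patterns were chosen after the sequences had been read.

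Sfrp2 and Dkk2, 2 of the 8 genes, were higher in FL-Y than in FDC by a log2 difference of at least 2, where 2.49% of all genes were, and 0 were lower by that much, where 5.43% were. Without FDC array 1 the Dkk2 difference was 1.98. Against BMDC, 5 genes (Sfrp1, Sfrp2, Dkk2, Dkk3 and Wnt5a) were higher in FL-Y by at least 2 and 0 were lower, where 5.93% and 8.70% of all genes were. These comparisons share the FL-Y array, and the one with BMDC shares its BMDC arrays with the comparison of FDC. The median difference of FL-Y minus FDC was -0.58 for the 8 genes and -0.12 for all genes, and that of FL-Y minus BMDC was 2.50 and -0.08. Rescaling the arrays to one median moved the median of all genes to 0.20 for FL-Y minus FDC and to 0.23 for FL-Y minus BMDC. With 1 FL-Y array there is no replicate check. With an offset at the 40th percentile 3 genes (Sfrp1, Sfrp2 and Dkk3) exceeded BMDC by at least 2, and Dkk2 (1.75) and Wnt5a (1.70) by less. With the mean of all probe sets of a gene, 4 genes exceeded BMDC by at least 2, and Wnt5a (0.69) did not.

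**Figure D3:**
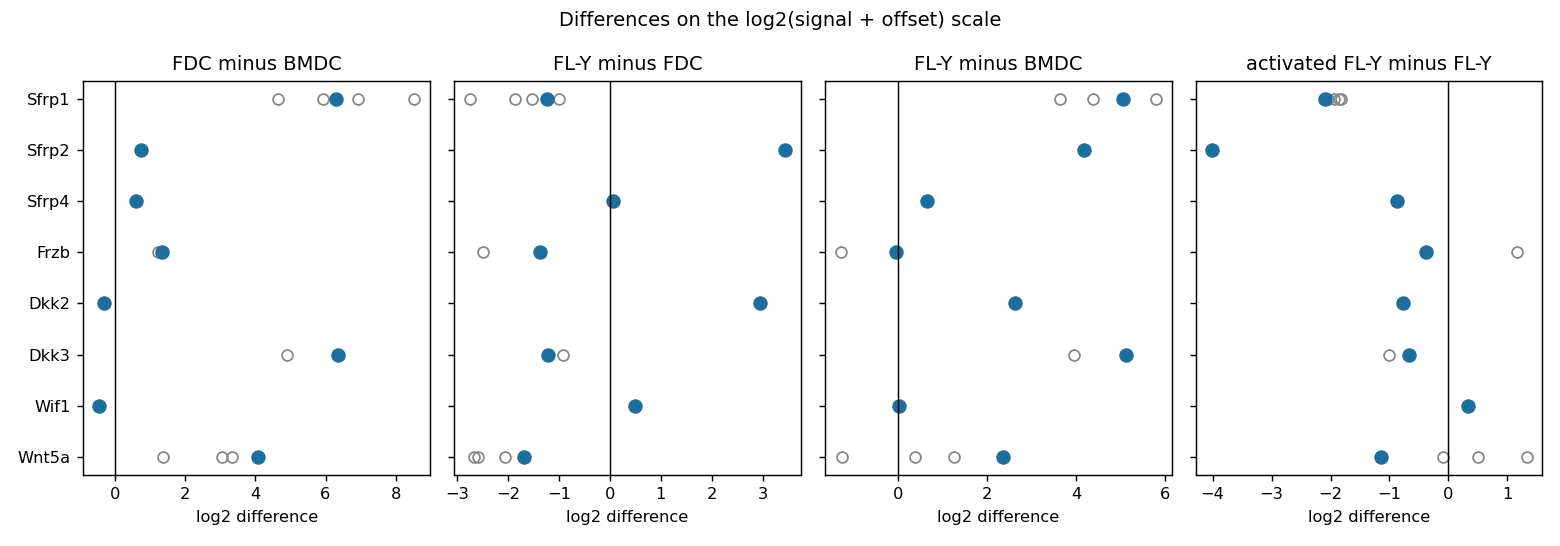
Log2 differences (horizontal axes, log2 of signal plus offset) of the 8 genes in 4 contrasts, with a filled point for the representative probe set and open circles for the other probe sets of a gene. All 5 Sfrp1 probe sets lie between -2.09 and -1.82 on activation of FL-Y, while those of Wnt5a lie on both sides of 0, from -1.15 to 1.33.

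Activation of FL-Y through the lymphotoxin beta receptor, which in lymphoid stroma acts through NF-kB, went with lower signals of Sfrp2 and Sfrp1. Sfrp2 was at 29.8 on the activated FL-Y array, next to that array's 40th percentile of 29.5, against 699 on the FL-Y array, a ratio of 0.0426. Its log2 difference of -4.02 was the lowest of all 18193 genes. Sfrp1 gave 534 in activated FL-Y and 2313 in FL-Y, and its log2 difference of -2.09 ranks 125 from the lowest. The ratio of activated FL-Y over FL-Y was 0.231 to 0.267 in all 5 probe sets of Sfrp1, a narrow range for probe sets whose signals in FL-Y run between 270 and 2313.

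The other genes differed less on activation. Dkk3 was at 850 in activated FL-Y and 1364 in FL-Y, a log2 difference of -0.67, and its other probe set was at 373 in activated FL-Y and 762 in FL-Y. Dkk2 (-0.77), Sfrp4 (-0.88) and Frzb (-0.38) were also lower on the activated array, and Wif1 (0.34) was higher at a signal under both 40th percentiles. The dimmer Frzb probe set was higher on the activated array (1.17), against -0.38 in the brighter one. Wnt5a had no single direction: the representative was at 89.8 in activated FL-Y and 216 in FL-Y (-1.15), the second at 133 in activated FL-Y and 89.1 in FL-Y (0.51), the third at 38.9 in activated FL-Y and 42.2 in FL-Y (-0.09) and the dimmest at 28.6 in activated FL-Y and 2.8 in FL-Y (1.33). The mean over the 4 probe sets was 0.15.

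By the representative probe set, 3 of the 8 genes (Sfrp1, Sfrp2 and Wnt5a) were lower in activated FL-Y by a log2 difference of at least 1 and 0 were higher, where 10.2% of all genes were lower and 3.75% higher, 14.0% in all. The median difference was -0.83 for the 8 genes and -0.09 for all genes. The activated array had the lower median signal, 47.9 against 61.1 in FL-Y, and rescaling the arrays to one median moved the median of all genes to 0.21. On that scale Sfrp2 was at -3.85, Sfrp1 at -1.75, Wnt5a at -0.86 and Dkk3 at -0.33, so of the 8 genes only Sfrp2 and Sfrp1 were then lower by at least 1. There is 1 array on each side, and none of these differences has a replicate check.

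The other genes of the pathway were read from 6 lists, with FDC compared with BMDC by limma over 27022 probe sets and Benjamini-Hochberg adjustment at 0.05. The lists held 103 genes, of which 100 were measured and 74 tested. Of these 74, 9 were higher in FDC and 1 lower. Over all probe sets tested 8.93% passed, 4.84% higher and 4.09% lower. Over all 12750 genes tested 11.3% passed, 5.87% higher and 5.40% lower, with a median difference of -0.03. Calls in the lists are by the representative probe set. An unadjusted p under 0.05 was found for 27.2% of all genes tested, 13.8% higher and 13.5% lower.

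Receptors held 5 of the 10 calls. Of 18 tested receptors and co-receptors 5 rose and 0 fell, with a median of 1.57. The Frizzled receptor Fzd2 gave 3004 and 2612 in FDC and 28.6 and 55.8 in BMDC, a log2 difference of 5.68 ± 0.43 (SE, limma adjusted p = 0.00348), and all 3 of its probe sets rose. Fzd2 was also high in the line, at 2382 in activated FL-Y and 2908 in FL-Y. Ptk7, a pseudokinase co-receptor, rose by 4.92 ± 0.41 (SE, limma adjusted p = 0.00421). Ryk, a Wnt5a receptor, rose by 5.30 ± 0.91 (SE, limma adjusted p = 0.0274), although its BMDC signals of 16.9 and 188 differed.

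Ror1 and Ror2 are the receptor kinases tied to Wnt5a. Ror1 gave 437 and 115 in FDC and 7.4 and 4.6 in BMDC, and rose by 3.58 ± 0.66 (SE, limma adjusted p = 0.0345). Ror2, named here after its values were seen, gave 161 and 158 in FDC and 6.3 and 19.1 in BMDC, with a rise of 2.73 ± 0.42 (SE, limma adjusted p = 0.0203). In the line Ror2 was at 312 in activated FL-Y and 184 in FL-Y. Only 1 of 3 probe sets of Ror1 and 1 of 2 of Ror2 was above the filter and tested. With no filter neither gene was called (limma adjusted p = 0.0714 for Ror1 and 0.0523 for Ror2). Leaving out BMDC array 1 or 2 ended the call of Ror1 (limma adjusted p = 0.091 and 0.107), and without either FDC array its probe set did not pass the filter. Ror2 was likewise under the filter without either FDC array, missed the threshold without BMDC array 1 (adjusted p = 0.0855) and passed without BMDC array 2 (0.047). Leaving out FDC array 1 or 2 ended the call of Ryk (0.0693 and 0.0741), whose mean over its probe sets was 3.52. Fzd2 and Ptk7 passed in all 4 cases.

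**Figure D4:**
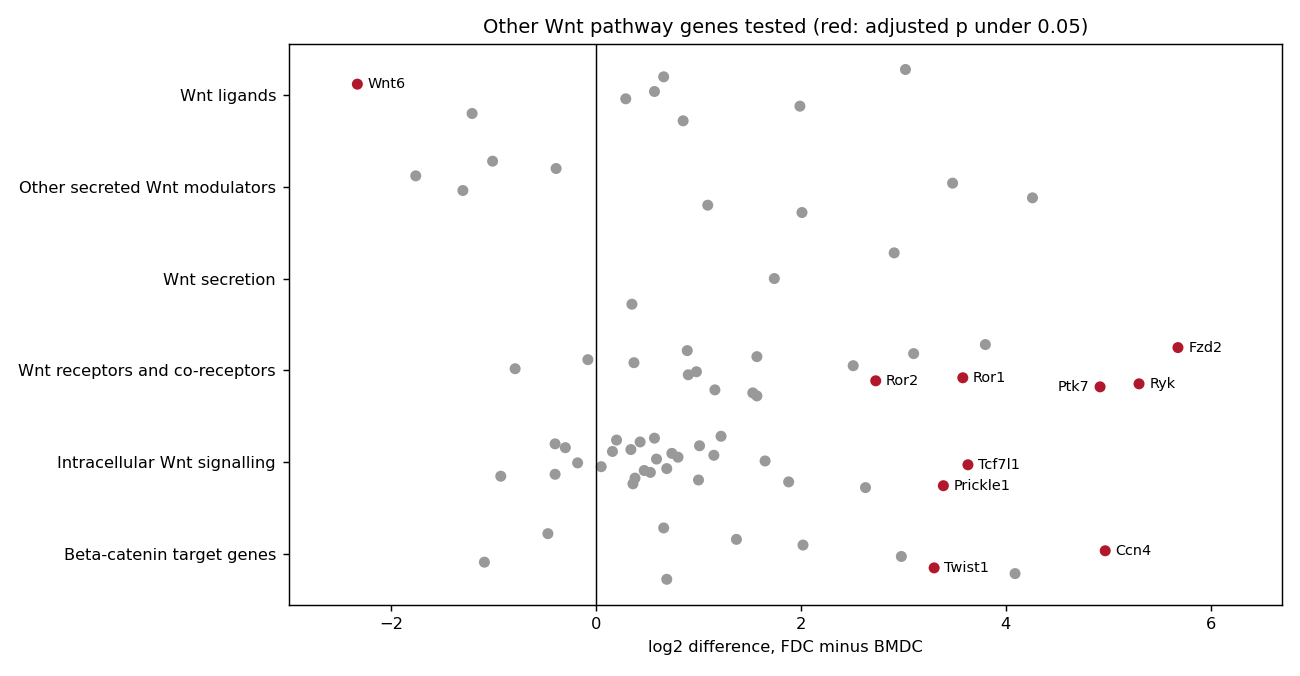
Log2 difference of FDC minus BMDC (horizontal axis) for the tested genes of 6 Wnt lists (rows), 1 point per gene by its representative probe set, red with a name where the limma adjusted p was under 0.05. Red points are on the right for 9 genes, 5 of them receptors, and on the left for Wnt6 alone.

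Among the tested genes, 1 of 8 ligands (12.5%) and 0 of 8 other secreted modulators were called, where 11.3% of all genes were. Of 8 tested Wnt ligands other than Wnt5a, 0 rose and 1 fell: Wnt6 gave 18.4 and 11.3 in FDC and 103 and 165 in BMDC, a log2 difference of -2.33 ± 0.42 (SE, limma adjusted p = 0.0325), and this call was lost without FDC array 1 (adjusted p = 0.0703) or FDC array 2 (0.0914). Without either BMDC array the probe set did not pass the filter. Of the 2 tested probe sets of Wnt6, 1 was called lower. The other 10 measured ligands were below the filter. Of 8 other secreted modulators tested, 0 passed with limma and 5 had an unadjusted p under 0.05, of which Sfrp5 (-1.01) and Notum (-1.30), named after their values were seen, were lower in FDC. Cthrc1, a secreted glycoprotein that favours Ror2 signalling, gave 194 and 1112 in FDC and 2.3 and 24.6 in BMDC (log2 difference 4.26 ± 0.91, limma adjusted p = 0.0509). It passed without FDC array 1 (5.48, adjusted p = 0.0193), missed the threshold without BMDC array 1 (0.15) or BMDC array 2 (0.0778), and was under the filter without FDC array 2. Rspo3, an R-spondin that enhances Wnt signalling, gave 1043 and 203 in FDC and 18.8 and 41.7 in BMDC (3.48 ± 0.82, limma adjusted p = 0.0654), and passed without FDC array 2 (4.62, adjusted p = 0.0172) but not without FDC array 1 (0.0921), BMDC array 1 (0.193) or BMDC array 2 (0.12). Rspo2, named after its values were seen, was at 2553 in activated FL-Y and 1737 in FL-Y, and at 69.6 and 46.3 in FDC.

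Of 3 tested genes in the Wnt secretion list 0 passed with limma by the representative probe set, and 2 had an unadjusted p under 0.05. Trabd2b is counted there by the list alone. Its representative differed by 0.35, and 1 of its 2 probe sets was called higher. The acyltransferase Porcn had a difference of 2.91 ± 0.68 (SE, limma adjusted p = 0.0638) and the Wnt carrier Wls of 1.74 ± 0.42 (SE, limma adjusted p = 0.0703). Porcn passed without FDC array 2 (3.80, adjusted p = 0.0242) but not without FDC array 1 (0.114), BMDC array 1 (0.197) or BMDC array 2 (0.126).

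Of 28 tested intracellular genes 2 rose and 0 fell, with a median of 0.55. They were Tcf7l1, a transcription factor of the TCF family, at 3.63 ± 0.45 (SE, limma adjusted p = 0.0114), and Prickle1, of the planar polarity branch, at 3.39 ± 0.56 (SE, limma adjusted p = 0.025). For each of them 1 of 2 tested probe sets was called, and the mean over all probe sets was 3.38 for Tcf7l1 and 1.65 for Prickle1. The call of Prickle1 ended when FDC array 1 (limma adjusted p = 0.0684) or BMDC array 2 (0.0875) was left out. Of 10 tested genes listed as beta-catenin targets 2 rose and 0 fell, with a median of 1.70. Ccn4, a matricellular protein, rose by 4.97 ± 0.51 (SE, limma adjusted p = 0.00659) and the mesenchymal transcription factor Twist1 by 3.30 ± 0.47 (SE, limma adjusted p = 0.0165), and the Twist1 call was lost without FDC array 1 (adjusted p = 0.0516) or BMDC array 2 (0.0657). Axin2, the most widely used readout of beta-catenin activity, had a difference of 0.66 ± 0.38 (SE, limma adjusted p = 0.38), and was named after its values were seen. Only 1 of its 2 probe sets was tested. Of the other listed targets not called, also named after their values were seen, Fst (4.09) and Ccnd1 (2.98) had larger differences. Cd44 (-1.09) and Nkd1 (-0.47) were lower in FDC.

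The genes most like each member were sought by Pearson correlation of log2 values over the 6 arrays, among 4530 other genes with an SD of at least 1. With 6 arrays in 4 groups such correlations are easily high and are given as a description. Sfrp1 was most like Trp53i13 (r = 0.999) and the Wnt receptor Fzd1 (0.996), and Fzd1 was at 557 in activated FL-Y, 1164 in FL-Y, 3749 and 784 in FDC, and 164 and 73 in BMDC. Dkk3 was most like the protease inhibitor Timp1 (0.998) and the matrix glycoprotein Tnc (0.996), and Wnt5a was most like Cmah (0.997) and Pdlim2 (0.993). A correlation over 0.95 was found for 178 genes with Dkk3, 78 with Sfrp1 and 74 with Wnt5a, but for 0 with Sfrp2, whose nearest were Klf15 (0.919) and Krt80 (0.855). Dkk2 was nearest to Ube2cbp (0.971) and Ldb2 (0.966), Frzb to Vstm4 (0.987) and Rgs8 (0.984), and Sfrp4 to Aass (0.981) and Atp4b (0.962).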

How the data were processed

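The deposited table holds linear intensity values of 45101 probe sets, 64 of them controls, on each array. In the deposited values the mean after trimming 2% at each end was 500 on all 6 arrays. The program that made them is not given in the sources used here, and no detection call was used. Gene names came from the platform annotation (34945 probe sets with 1 gene, 932 with several, which were not named), checked against gene identifiers of GRCm38.p6, where 0 symbols changed. Values were analysed as log2(signal + 14.2), the median of the 20th percentiles of the arrays. Probe sets with a mean above the 40th percentile (a signal of 46.4) over the FDC and BMDC arrays were tested with limma 3.58.1 under R 4.3.3 (lmFit, then eBayes, with 2 residual and 3.35 prior degrees of freedom), two-sided. The fit was tested on simulated data. The p-values measure the spread between these arrays, which may be technical, and their number limits the precision. An exact permutation test of 2 against 2 arrays cannot go below 0.333. The probe set of a gene whose mean log2 value over 6 arrays was highest represented it. FL-Y arrays entered no test. Genes named from a list were up to 4 calls with the largest difference, or the 2 largest differences where 0 were called, and for each member the 2 most correlated genes. Members and lists were chosen with earlier results of these data known. Alternatives were other offsets, scalings and filters, a block, other probe set rules and leaving out each array.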

Additional observations from a re-analysis of the deposited data

How the results depend on the processing

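The 2413 probe sets called between FDC and BMDC became 1443 with a floor in place of the offset (receptor calls 2, intracellular calls 1) and 1433 with no filter (ligands 0, receptors 2, intracellular 1), where more probe sets share the adjustment. An offset at the 40th percentile gave 0 ligands, 1 other secreted modulator, 1 gene of the secretion list and 3 members higher in FL-Y than in BMDC. Rescaling to one median gave 1 other secreted modulator. The mean of all probe sets gave 0 ligands, 1 other secreted modulator and 2 genes of the secretion list. It also gave 1 member lower in FL-Y than in FDC (Wnt5a) and a reversed sign of Wnt5a on activation (0.15). Leaving out 1 array gave 1312 to 2090 probe sets, with 1333 without BMDC array 1 and 1312 without BMDC array 2. The calls were then 0 to 0 for ligands, 0 to 1 for other secreted modulators, 0 to 1 for secretion genes, 2 to 6 for receptors, 1 to 2 for intracellular genes and 1 to 2 for target genes. Members lower in FL-Y than in FDC were then 0 to 2, with Sfrp1 and Frzb without FDC array 2. With the replicate number as a block, 2392 probe sets were called, 2038 of them shared, with 0 ligands and 2 other secreted modulators. The first BMDC title carries no number, and the differences between arrays 1 and 2 correlated at 0.199 between the cell types over the tested probe sets. Quantile normalization kept each of these counts within 1.5 times, and the fit with all 6 arrays gave the same counts. Of 224 values of a member's difference under an alternative, 13 changed sign, in 8 of the differences, among them Sfrp1 in FL-Y minus FDC (0.78 without FDC array 1), Dkk2 in FDC minus BMDC (0.64 without FDC array 1, 0.96 without BMDC array 1) and Frzb on activation (0.40 with the mean of probe sets). Where neither the arrays nor the probe sets tested differ, the cause was not tested. Signals under 100 limit what Frzb, Sfrp4, Wif1 and the BMDC values can show. They also limit Sfrp2 (76.9 and 33.3) and Dkk2 (3.2 and 52.1) in FDC, and Sfrp2 in activated FL-Y (29.8).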
